A study of Gallus gallus with 88 samples.

Results

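The genes described here are 6 genes of muscle protein breakdown, FBXO32, TRIM63, CAPN3, FOXO1, FOXO3 and CTSB, in the breast muscle of broiler chickens. They were chosen by symbol, with the probe set of the highest mean standing for a gene. Of the 6, 4 could be read: FBXO32 (probe set 15463576), TRIM63 (15472765), CAPN3 (15516100) and CTSB (15500161), with 1 probe set each among 20706 tested probe sets and 11528 named genes. FOXO1 and FOXO3 have no probe set in the annotation used here and are not analysed here.

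Muscle loses protein by several routes. FBXO32 (atrogin-1) and TRIM63 (MuRF1) are ubiquitin ligases of striated muscle that mark proteins for the proteasome, and in mammals both are switched on in fasting, disuse and illness. FOXO transcription factors drive both ligases, and insulin and growth factor signalling through the kinase AKT holds FOXO out of the nucleus. CAPN3 is a calcium-dependent protease of skeletal muscle that is held on the giant sarcomere protein titin, and its loss in humans causes a limb-girdle muscular dystrophy. CTSB, cathepsin B, is a cysteine protease of the lysosome, an organelle that almost all cells have.

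The study held broiler eggs at 37.8 °C except for one interval, in which treated eggs were at 38.8 °C or 36.8 °C, and asked how the pectoralis major muscle responds at once and at slaughter age. The interval was embryonic days 7 to 10 for embryos sampled on day 10, and days 10 to 13 for embryos sampled on day 13, with 8 embryos each at 38.8, 36.8 and 37.8 °C on either day. Post-hatch day 35 has 8 birds for each of 38.8 °C on days 7 to 10, 36.8 °C on days 7 to 10, 38.8 °C on days 10 to 13 and 36.8 °C on days 10 to 13, and 8 birds kept at 37.8 °C throughout, of which 2 carry the label of the earlier interval and 6 that of the later one. After hatching the birds lived in a barn on a standard diet with free access to food. Each array holds the RNA of 1 animal, and the labels name no line of broiler and no sex.

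The values are the deposited log2 signals, so a difference of 1 is a doubling. The median over an array lay between 7.56 and 8.13 for day 10 embryos, 7.68 and 7.97 for day 13 embryos and 6.32 and 6.76 for birds of day 35, and tests were made only within the 48 embryo arrays and within the 40 arrays of day 35. Muscle genes marked the tissue at every age: the summed signal of 9 skeletal muscle markers, led by ACTA1, spanned 14.04 to 14.85 in day 10 embryos, 14.99 to 15.21 in day 13 embryos and 15.68 to 15.97 in the birds (log2). Cartilage markers were also present on day 10, where the summed signal of 12 genes ran between 11.9 and 14.2. The summed signal of 11 fibroblast and tendon markers spanned 15.01 to 15.72 on day 10 and 15.23 to 15.76 on day 13, above that of muscle. At day 35 it spanned 12.87 to 14.64. For 8 erythroid markers it was 14.05 to 14.71 on day 10 and 13.66 to 14.3 on day 13. The lists differ in size, so these sums give no share of cells. The deposit lists the 8 warm arrays of each age beside 4 controls and the 8 cool arrays beside the other 4 (at day 35, 16 arrays each), here called listing blocks. The labels give no meaning for them. At day 35 the controls with the label of the earlier interval all lie beside the warm arrays. The 4 controls beside the cool arrays all carry the later label. Among controls alone the blocks differed at 1900 probe sets on day 10, at 0 on day 13 and at 0 at day 35 (limma, adjusted p under 0.05). At an unadjusted p under 0.05 they differed at 5816, 4177 and 1244. Treated arrays were therefore also compared with the 4 controls of their own block.

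CAPN3 was higher on day 13 than on day 10. In 37.8 °C embryos CAPN3 had 9.12 at the lowest, 9.61 at the median and 10.23 at the highest on day 13, against 6.17, 6.81 and 7.00 on day 10. The groups did not overlap, and the difference was 2.86 ± 0.20 on the log2 scale (SE, n = 8 each), a 7.24-fold rise (limma, adjusted p = 5.7e-15). It had the 24th smallest p of all 20706 probe sets. The rise was 2.82 ± 0.20 in 38.8 °C embryos and 3.18 ± 0.20 in 36.8 °C embryos, again with no overlap between days. The difference of either rise from that at 37.8 °C did not pass the test of the interaction, which gave -0.04 ± 0.29 for 38.8 °C and 0.33 ± 0.29 for 36.8 °C (limma, adjusted p = 0.9998 and 0.97). No probe set was called for either interaction (0 percent), and none of the 4 genes passed an unadjusted p of 0.05 there, beside 3.88 and 2.95 percent of probe sets. CAPN3 stood in the lower part of its array on day 10, with a median rank at the 29.6th percentile of probe sets, and at the 79.6th percentile on day 13.

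Both ubiquitin ligases rose as well, in smaller steps. TRIM63 had 8.13, 8.44 and 8.64 (lowest, median, highest) in 37.8 °C embryos of day 13, against 7.79, 7.91 and 8.39 on day 10, with overlapping ranges. Its rise was 0.43 ± 0.10, or 1.35-fold (limma, adjusted p = 6.7e-04). FBXO32 had 7.49, 7.83 and 8.29 on day 13, against 7.00, 7.52 and 7.73 on day 10. It rose by 0.40 ± 0.10, or 1.32-fold (limma, adjusted p = 0.0020), and all 8 embryos of day 13 lay above the day 10 mean for either ligase. Both also rose at the other temperatures, TRIM63 by 0.57 at 38.8 °C and 0.58 at 36.8 °C and FBXO32 by 0.44 at 38.8 °C and 0.59 at 36.8 °C (SE 0.10 each). In the controls listed with the 38.8 °C arrays TRIM63 averaged 7.877 on day 10 and 8.517 on day 13. In those listed with the 36.8 °C arrays it averaged 8.135 and 8.362, a smaller rise. FBXO32 averaged 7.584 and 8.040 in the former and 7.377 and 7.714 in the latter. Whether the rises differ between blocks was not tested.

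CTSB did not pass the test. It had 10.04, 10.52 and 10.76 on day 13, against 10.18, 10.71 and 11.10 on day 10 in 37.8 °C embryos. The difference of -0.13 ± 0.15 did not pass the test (limma, adjusted p = 0.58), nor did -0.21 ± 0.15 at 38.8 °C or -0.04 ± 0.15 at 36.8 °C. With age, 3 of the 4 genes were thus called at each temperature, while 26.8 percent of all probe sets were called at 37.8 °C, 22.8 percent at 38.8 °C and 26.4 percent at 36.8 °C. Higher on day 13 were 9.65 percent at 37.8 °C, 8.4 percent at 38.8 °C and 14.4 percent at 36.8 °C, and lower were 17.2, 14.4 and 12.1 percent. With the listing block as a term the same 3 genes were called, beside 28.8, 24 and 28.8 percent of probe sets in that order of temperatures. This is no check of the age differences. Each temperature had the same split over the blocks on both days, so the term could not move them. The median difference of the 4 genes at 37.8 °C was 0.41, beside -0.04 over all 11528 named genes.

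**Figure D1:**
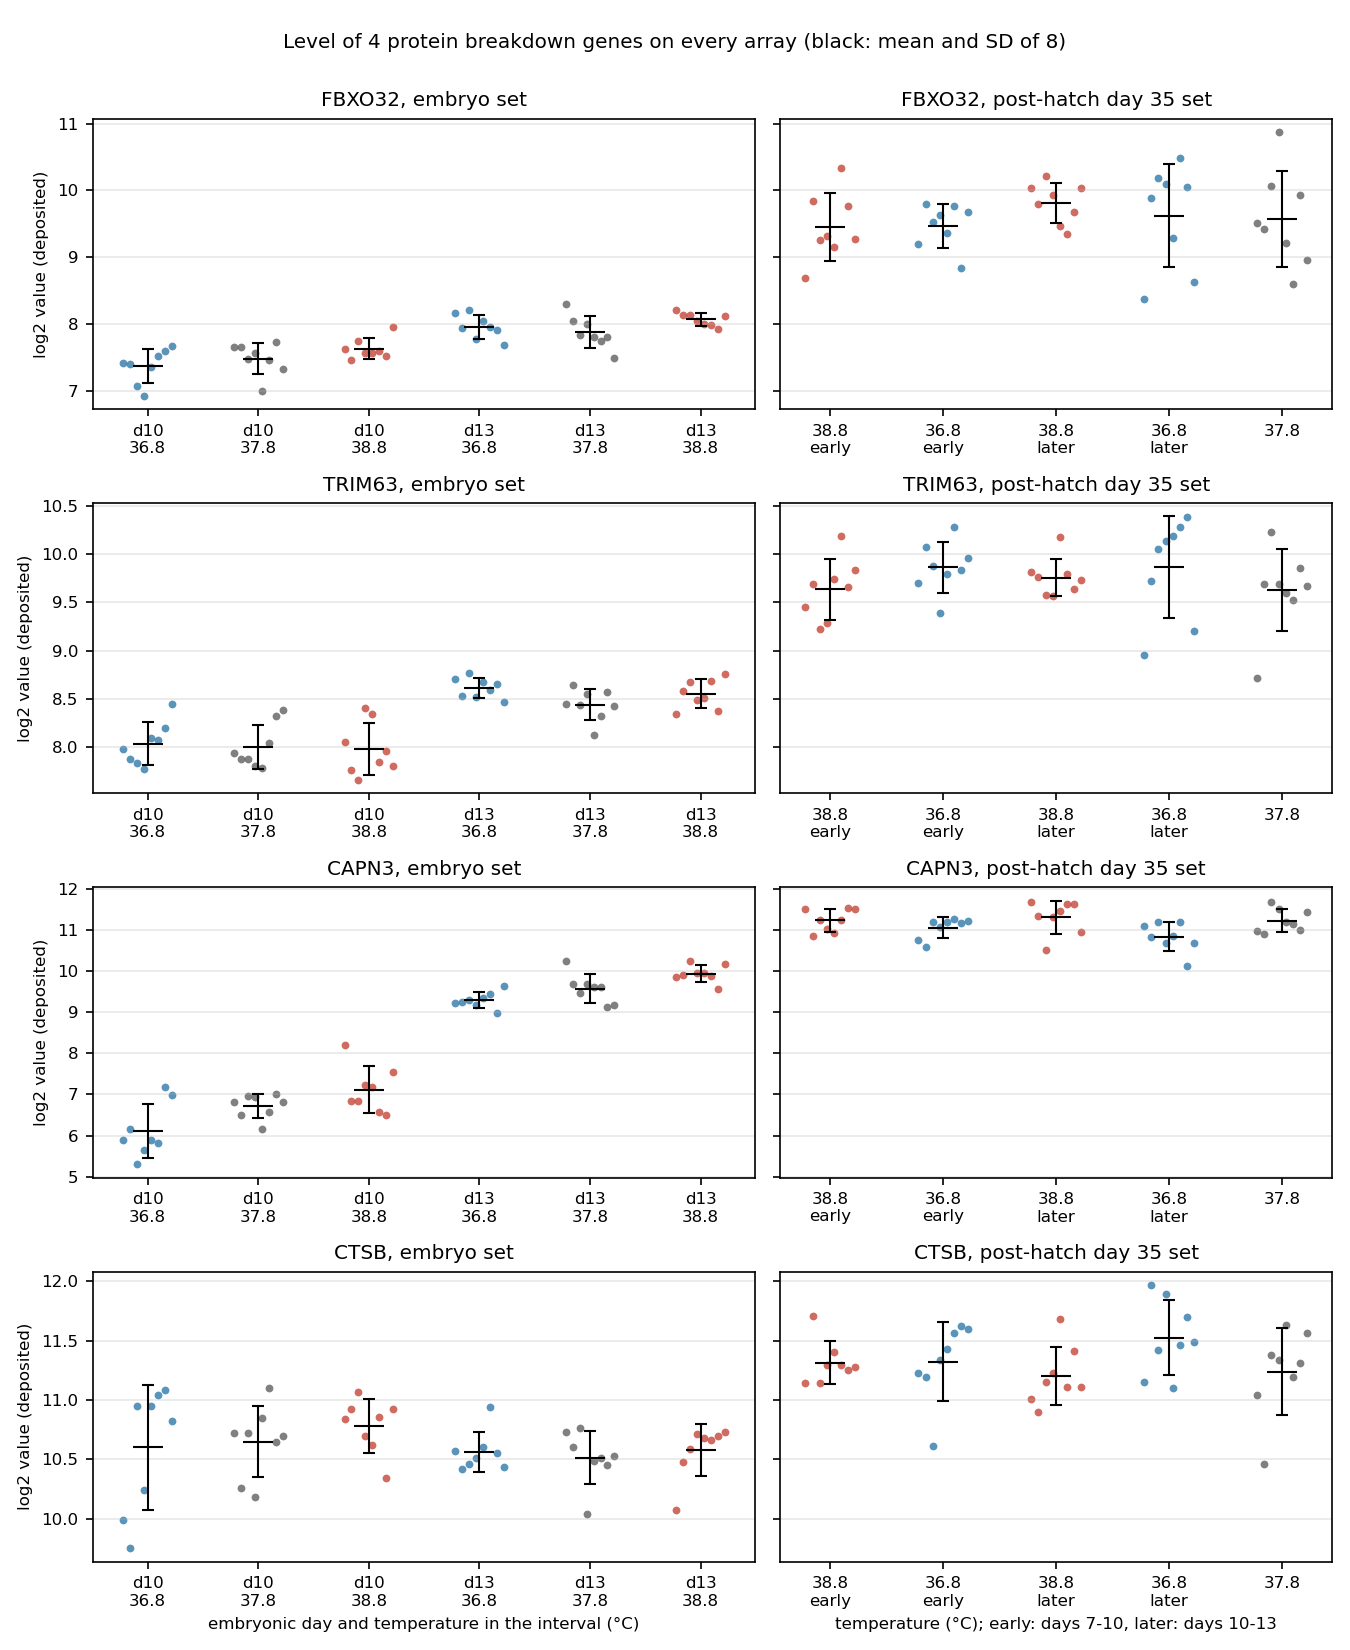
Deposited log2 values of FBXO32, TRIM63, CAPN3 and CTSB on each of 88 arrays, embryos on the left (d10 and d13, embryonic days 10 and 13) and post-hatch day 35 on the right, which have different array medians and share only the axis. Red is 38.8 °C, blue 36.8 °C and grey 37.8 °C in the treatment interval, and black marks the mean and SD of 8 arrays. CAPN3 climbs between the embryonic days with no overlap at any temperature, whereas the 5 groups of day 35 overlap for all 4 genes.

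Markers of muscle and of cartilage also moved over the same days. Over all named genes 11.5 percent rose and 22.2 percent fell between day 10 and day 13 at 37.8 °C. Of 9 skeletal muscle markers 8 rose and 1 fell there, with a median difference of 0.46. The summed muscle signal was 14.99 to 15.18 on day 13, against 14.34 to 14.77 on day 10. Of 12 cartilage markers 11 fell, with a median difference of -2.16, and their summed signal was 11.8 to 12.2 on day 13, against 12.9 to 14.1 on day 10. Of the other lists, 3 of 5 adipocyte markers rose (median difference 0.44), 2 of 8 endothelium markers rose, 2 of 14 immune markers rose, 3 of 8 erythroid markers fell, 3 of 11 fibroblast and tendon markers rose and 4 fell, 1 of 6 nerve markers rose and 2 fell, and none of 10 epidermis and feather markers was called. No marker was at 0 on all arrays of a group. In such bulk samples, fewer cells of a type and less RNA per cell cannot be told apart. The part of these markers in the rises of CAPN3 and the ligases was not tested.

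Other genes of the pathway were read from 6 lists, which hold none of the 4 genes. Among muscle ubiquitin ligases and ubiquitin enzymes, 8 of 31 rose with age at 37.8 °C and 4 fell, where 11.5 percent of all named genes rose and 22.2 percent fell. The median difference of the list was 0.10. TRIM55 (MuRF2), a sarcomere ligase and close relative of TRIM63, rose by 1.20 ± 0.12 to 11.57 ± 0.11 on day 13, against 10.38 ± 0.31 on day 10 (SD, n = 8 each). KLHL40, an adaptor that protects thin filament proteins in muscle, rose by 0.98 ± 0.13. ASB2, an adaptor of a cullin ligase that acts on filamins, rose by 0.82 ± 0.14. RBX1, the RING subunit of cullin ligases, fell by 0.25, FBXO21 by 0.23 and the proteasome-bound deubiquitinase USP14 by 0.19. All of these passed the test (limma, adjusted p 4.4e-11 to 0.027).

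The genes around calpain include its anchor. In the calpain list 6 of 16 rose and 1 fell, with a median of 0.25. TTN, titin itself, rose by 1.0 ± 0.11 to 13.09 ± 0.09 on day 13, against 12.09 ± 0.33 on day 10 (SD, n = 8 each; limma, adjusted p = 1.3e-09). NRAP, a protein of forming myofibrils, rose by 1.07 ± 0.23. XIRP1 (Xin), an actin-binding protein of muscle attachment sites, rose by 0.97 ± 0.10, and CAPN10, a calpain of many tissues, fell by 0.29 ± 0.08. The part of TTN in the rise of CAPN3 was not tested.

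Genes upstream and downstream of FOXO split both ways. Among regulators, 12 of 37 rose and 7 fell, with a median of 0.09. PRKAG3, the muscle subunit of the energy sensor AMPK, rose by 1.64 ± 0.14, PPARGC1A, a coactivator of mitochondrial genes, by 1.23 ± 0.15, and MSTN, the growth inhibitor myostatin, by 0.81 ± 0.19. IGF2, a growth factor of embryonic life, fell by 0.88, the kinase SGK1 by 0.49 and the phosphoinositide kinase subunit PIK3R2 by 0.45 (limma, adjusted p 2.7e-12 to 0.0011 for these 6). Among genes known as FOXO targets, 10 of 31 rose and 4 fell, with a median of 0.17. PDK4, which turns muscle from glucose to fat as fuel, rose by 1.98 ± 0.43 to 8.19 ± 0.46 on day 13, against 6.21 ± 0.64 on day 10 (SD, n = 8 each; limma, adjusted p = 3.7e-04). CD36, a fatty acid carrier, rose by 1.21 ± 0.45 and the repressor BCL6 by 0.89 ± 0.10. MYLIP fell by 0.56, PIK3IP1 by 0.47 and the autophagy gene GABARAPL1 by 0.32.

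Lysosome and autophagy genes moved both ways at 37.8 °C, where 11.5 percent of all named genes rose and 22.2 percent fell. Of 36 cathepsin and lysosome genes 5 rose and 8 fell, with a median of -0.08. CTSG rose by 0.49, the cholesterol carrier NPC1 by 0.45 and LAPTM4B by 0.43, while the lysosomal enzyme HEXA fell by 0.59, the calcium channel MCOLN1 by 0.30 and the lipase LIPA by 0.28. Of 33 autophagy genes 5 rose and 4 fell, with a median of 0.01. RB1CC1 rose by 0.85 ± 0.27, SNAP29 by 0.45 ± 0.17 and the kinase ULK1 by 0.28 ± 0.09. MAP1LC3C fell by 1.14, TP53INP1 by 0.29 and VMP1 by 0.22.

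The balance of the lists was not the same at every temperature. At 38.8 °C, where 9.88 percent of all named genes rose and 19.1 percent fell, 6 ubiquitin genes rose and 0 fell, 7 calpain genes rose and 0 fell, 10 FOXO regulators rose and 6 fell, and 8 FOXO targets rose and 3 fell. The cathepsin and lysosome list had 4 rises and 11 falls there and the autophagy list 4 and 5. At 36.8 °C, where 17.4 percent of all named genes rose and 15.8 percent fell, 15 ubiquitin genes rose and 1 fell, 11 calpain genes rose and 2 fell, 16 FOXO regulators rose and 7 fell, and 14 FOXO targets rose and 3 fell. The cathepsin and lysosome list had 6 rises and 2 falls there and the autophagy list 8 and 0. The tests of the interaction, of 38.8 and of 36.8 °C against 37.8 °C, called 0 probe sets. The median interaction over all probe sets was 0.072 for 36.8 °C, and 0.007 after quantile normalization. For 38.8 °C it was -0.004, and 0.018 after quantile normalization. The part of this shift in the list counts was not tested.

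**Figure D2:**
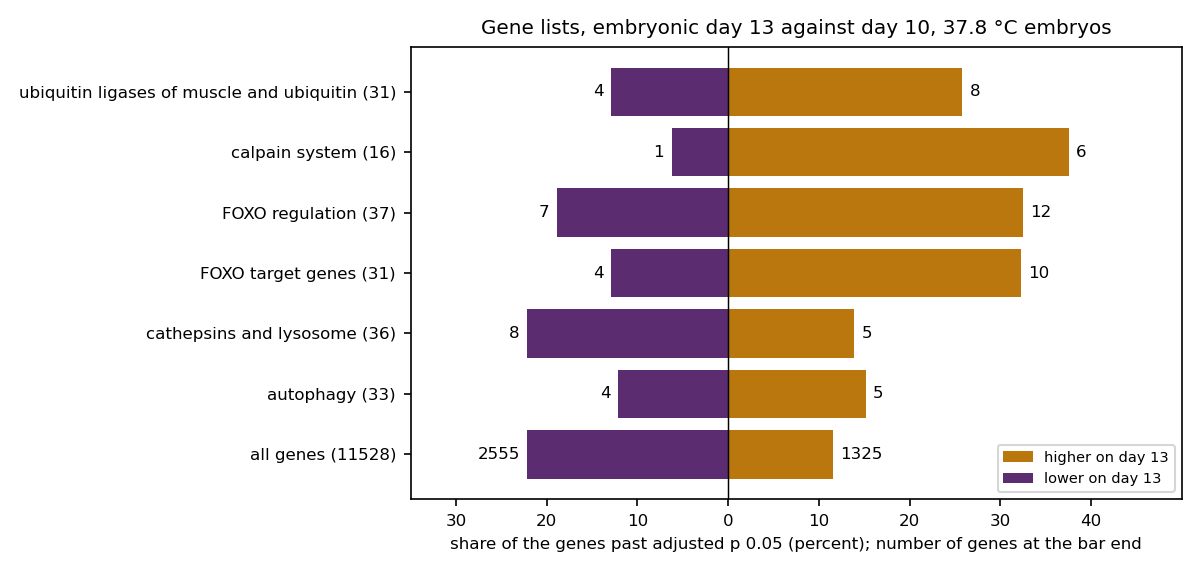
Share of genes (percent, horizontal axis) past adjusted p 0.05 on embryonic day 13 against day 10 in 37.8 °C embryos, for 6 lists and for all 11528 named genes, with list size in brackets and the number of genes at each bar end. In the ubiquitin, calpain and both FOXO lists more genes were higher on day 13 (8, 6, 12 and 10) than lower (4, 1, 7 and 4), whereas over all genes 1325 were higher and 2555 lower at this temperature (at 36.8 °C, not plotted, 2004 were higher and 1827 lower).

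Incubation temperature was first compared on day 10. CAPN3 had 6.51, 7.01 and 8.21 (lowest, median, highest) in 38.8 °C embryos, 5.30, 5.89 and 7.19 in 36.8 °C embryos and 6.17, 6.81 and 7.00 in 37.8 °C embryos. The 3 groups overlapped, and their means followed the temperature. Against control the difference was 0.40 ± 0.25 at 38.8 °C (limma, adjusted p = 0.63) and -0.61 ± 0.25 at 36.8 °C (adjusted p = 1.0). Within the listing blocks it was 0.31 ± 0.31 and -0.53 ± 0.31.

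Between 38.8 and 36.8 °C on day 10, CAPN3 differed by 1.01 ± 0.25, a 2.01-fold difference that did not pass the test (limma, adjusted p = 0.090). It passed without 38.8 °C replicate 11 (adjusted p = 0.0497) or without 36.8 °C replicate 51 (adjusted p = 0.046). The CAPN3 difference itself was no larger in these 2 runs (0.99 and 0.97). With 1 array left out, the adjusted p ran as high as 0.19 (limma). FBXO32 differed by 0.26 ± 0.11 in the same direction (adjusted p = 0.16), TRIM63 by -0.06 ± 0.12 and CTSB by 0.18 ± 0.18. With the listing block as a term the differences were 0.84 ± 0.44 for CAPN3, 0.05 ± 0.19 for FBXO32, 0.20 ± 0.20 for TRIM63 and 0.54 ± 0.31 for CTSB (limma, adjusted p = 0.99 each). On day 10 none of the 4 genes was called in the 3 comparisons, where 0, 0 and 0.0338 percent of probe sets were called for 38.8 against 37.8 °C, 36.8 against 37.8 °C and 38.8 against 36.8 °C (in the last, 0.00966 percent higher and 0.0241 percent lower). At an unadjusted p under 0.05 these comparisons held 0, 1 and 2 of the 4 genes, beside 6.29, 2.36 and 24.4 percent of probe sets.

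Neither the ligases nor cathepsin B passed the test on day 10. FBXO32 had 7.46, 7.58 and 7.95 at 38.8 °C and 6.92, 7.41 and 7.67 at 36.8 °C, against 7.00, 7.52 and 7.73 at 37.8 °C, differences of 0.15 ± 0.11 and -0.11 ± 0.11. TRIM63 differed from control by -0.02 ± 0.12 at 38.8 °C and by 0.03 ± 0.12 at 36.8 °C. CTSB differed by 0.14 ± 0.18 at 38.8 °C and by -0.04 ± 0.18 at 36.8 °C, and its spread was widest at 36.8 °C, with an SD of 0.53 there, 0.23 at 38.8 °C and 0.30 at 37.8 °C. Within the listing blocks CTSB differed from control by 0.32 ± 0.22 at 38.8 °C and by -0.22 ± 0.22 at 36.8 °C. For FBXO32 these values were 0.04 ± 0.13 and -0.01 ± 0.13, and for TRIM63 0.10 ± 0.14 and -0.09 ± 0.14. None of them passed the test. No listed gene passed the test on day 10. The smallest p against control were those of TRIB2 (-0.26 ± 0.07) and PPARGC1A (0.62 ± 0.20) at 38.8 °C, both with an adjusted p of 0.63. At 36.8 °C they were those of CAPN9 (0.25 ± 0.12) and MDM2 (-0.17 ± 0.08), both with an adjusted p of 1.0. PPARGC1A (0.85 ± 0.20) and TRIB2 (-0.32 ± 0.07) also came first between 38.8 and 36.8 °C (limma, adjusted p = 0.090 each). The 10 epidermis and feather markers had a median difference from control of 1.02 at 38.8 °C on day 10 and of 0.28 within the listing block, and none of them passed the test. Of the 12 cartilage markers 11 lay below control, with a median difference of -0.47, and of -0.54 within the block, and none passed.

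On day 13 the order of CAPN3 by temperature was the same. It had 9.55, 9.92 and 10.25 in 38.8 °C embryos, 8.97, 9.27 and 9.64 in 36.8 °C embryos and 9.12, 9.61 and 10.23 in controls. All 8 embryos at 38.8 °C lay above the mean at 36.8 °C, although the ranges still met. The difference of 0.64 ± 0.13, or 1.56-fold, passed the test (limma, adjusted p = 0.0076), and CAPN3 was the only one of the 4 genes to do so, where 5.88 percent of probe sets were called, 3.54 percent higher and 2.34 percent lower. At an unadjusted p under 0.05 it was again 1 of the 4, beside 21.2 percent of probe sets. Against control it differed by 0.36 ± 0.13 at 38.8 °C (adjusted p = 0.33) and by -0.28 ± 0.13 at 36.8 °C (adjusted p = 0.31), and neither passed.

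The listing blocks bear on this call. Among the day 13 controls alone, CAPN3 averaged 9.77 in the 4 listed with the 38.8 °C arrays and 9.38 in the 4 listed with the 36.8 °C arrays. This difference of -0.39 ± 0.19 between 4 and 4 controls did not pass the test (limma, adjusted p = 0.28). Within its own block, the difference of CAPN3 from control was 0.16 ± 0.14 at 38.8 °C and -0.09 ± 0.14 at 36.8 °C. With the block as a term the difference between 38.8 and 36.8 °C was 0.25 ± 0.20, in the same direction and no longer past the threshold (limma, adjusted p = 0.54), when 28 probe sets were called in place of 1217. Without the controls, block and temperature cannot be told apart between 38.8 and 36.8 °C, since the arrays of each temperature lie wholly in their own block. The fit with the block as a term separates them only through the 4 controls in each block.

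For TRIM63 and FBXO32 no temperature comparison passed on day 13. TRIM63 had 8.47, 8.63 and 8.77 in 36.8 °C embryos and 8.35, 8.54 and 8.76 in 38.8 °C embryos, against 8.13, 8.44 and 8.64 in controls. All 8 embryos at 36.8 °C lay above the control mean, by 0.18 ± 0.07 on average (limma, adjusted p = 0.27) and by 0.25 ± 0.08 within the block (adjusted p = 0.076). FBXO32 had 7.93, 8.08 and 8.21 at 38.8 °C and 7.68, 7.95 and 8.21 at 36.8 °C, against 7.49, 7.83 and 8.29 in controls. Its difference of 0.19 ± 0.09 at 38.8 °C (adjusted p = 0.39) was 0.03 ± 0.09 within the block, and its difference of 0.08 ± 0.09 at 36.8 °C was 0.24 ± 0.09 (adjusted p = 0.11). CTSB differed from control by 0.06 ± 0.10 at 38.8 °C and by 0.05 ± 0.10 at 36.8 °C. None of the 4 genes was called against control at either temperature, where 0.00483 percent of probe sets were called each time. With the listing block as a term, the fit of the block values above, 0 percent were called at 38.8 °C and 4.23 percent at 36.8 °C, again none of the 4 genes. At an unadjusted p under 0.05 each comparison held 2 of the 4, beside 12.3 percent of probe sets at 38.8 °C and 14.2 percent at 36.8 °C.

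**Figure D3:**
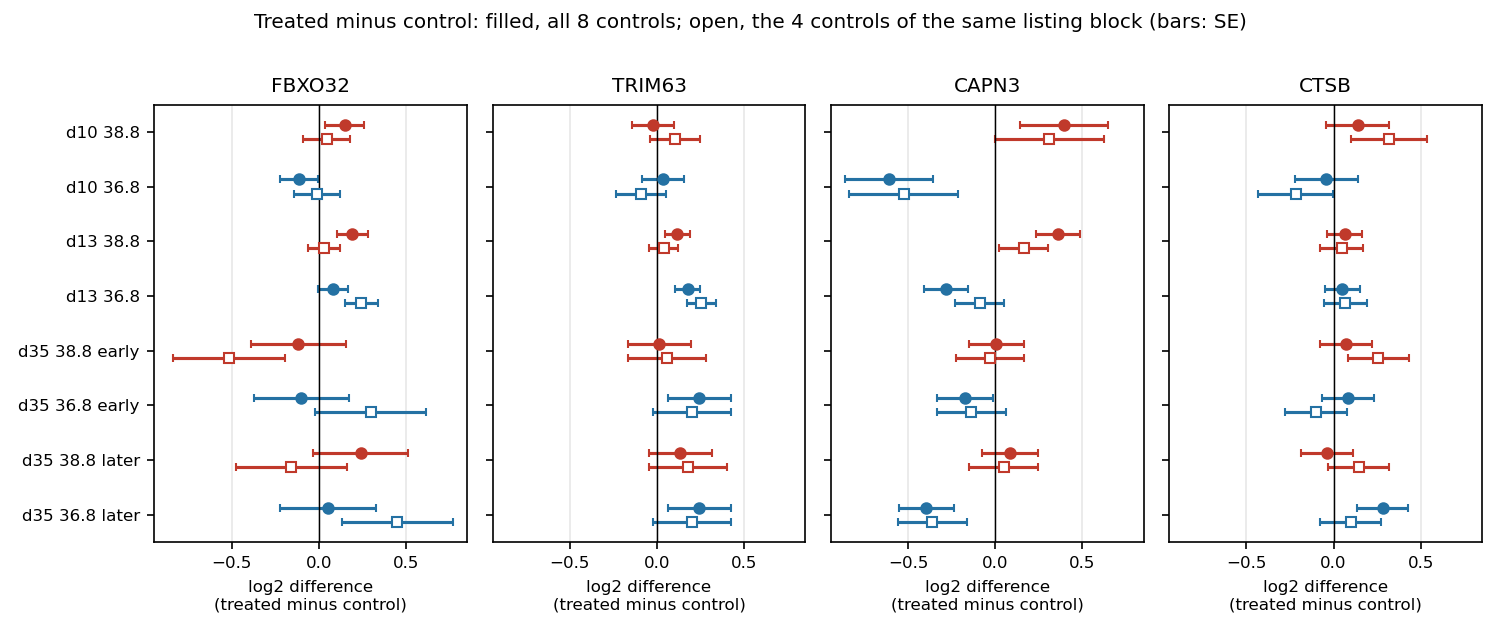
Log2 difference of treated minus control (horizontal axis) for 8 treated groups, red at 38.8 °C and blue at 36.8 °C, with bars of 1 SE. Filled circles use all 8 controls of the age and open squares the 4 controls of the same listing block. CAPN3 lies above 0 at 38.8 °C and below 0 at 36.8 °C on both embryonic days by either measure, but on day 13 the open squares (0.16 and -0.09) lie nearer to 0 than the circles (0.36 and -0.28).

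Of the listed pathway genes, 1 passed the test against all 8 controls of day 13. MCOLN1, the calcium channel of the lysosome, was 10.53 ± 0.06 in 36.8 °C embryos and 10.28 ± 0.07 in controls (SD, n = 8 each), a rise of 0.25 ± 0.04 (limma, adjusted p = 0.027). It was the one named gene called in this comparison among 11528 (0.00867 percent). With the listing block as a term it was called too, at 0.27 (adjusted p = 0.014), but no longer alone. That fit called 561 named genes higher at 36.8 °C (4.87 percent) and 25 lower (0.217 percent). Among those higher were 5 of 36 cathepsin and lysosome genes, 3 of 31 FOXO targets, 2 of 37 FOXO regulators, 1 of 31 ubiquitin genes, 1 of 33 autophagy genes and 0 of 16 calpain genes, and no listed pathway gene was among those lower. At 38.8 °C the smallest p were those of FOXK1 (0.30 ± 0.08, adjusted p = 0.29) and UBE2J1 (0.30 ± 0.09, adjusted p = 0.29).

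Between 38.8 and 36.8 °C on day 13, the lists held more calls. In the ubiquitin list 4 of 31 were higher and 1 lower, in the calpain list 3 of 16 higher and 1 lower, among FOXO regulators 3 of 37 higher and 1 lower, among FOXO targets 2 of 31 higher, among cathepsin and lysosome genes 4 of 36 lower, and among autophagy genes 3 of 33 higher and 1 lower. Over all named genes 4.74 percent were higher and 3.01 percent lower. The list medians ran from -0.02 to 0.10, beside 0.01 over all genes. Titin was among them, at 13.18 ± 0.05 in 38.8 °C embryos and 12.95 ± 0.15 in 36.8 °C embryos (SD, n = 8 each), a difference of 0.24 ± 0.06 (limma, adjusted p = 0.016). FBXO30, a ligase linked to muscle wasting in mice, was higher by 0.32 ± 0.08 and the AMPK subunit PRKAA2 by 0.38 ± 0.08. The lysosomal enzymes GUSB (-0.43 ± 0.07) and LIPA (-0.37 ± 0.08) were lower. With the block as a term GUSB (-0.70, adjusted p = 0.013) and LIPA (-0.63, adjusted p = 0.049) were the 2 listed genes still called, while titin (0.10) and FBXO30 (0.03) were not, and over all named genes 0 percent were called higher and 0.173 percent lower. Of the marker lists, 2 of 11 fibroblast and tendon genes and 1 of 12 cartilage genes were higher at 38.8 °C. The summed cartilage signal was 11.82 to 13.53 there and 11.92 to 12.03 at 36.8 °C, and the summed muscle signal 15.07 to 15.19 at 38.8 °C and 15.07 to 15.21 at 36.8 °C. The part of these markers in the difference of CAPN3 was not tested.

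At slaughter age all 4 genes ranked high on the array. The median rank of CAPN3 was the 97.7th percentile of probe sets, after the 29.6th on day 10 and the 79.6th on day 13. FBXO32 ranked at the 43.6th percentile on day 10, the 51.6th on day 13 and the 91.7th at day 35, TRIM63 at the 52.2nd, the 62.0th and the 92.3rd, and CTSB at the 92.7th, the 91.1st and the 98th. These ranks are a description, since the sets have different array medians and a rank moves with the other probe sets too.

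Birds of day 35 differed widely in FBXO32. Over the 40 birds it ran between 8.37 and 10.87 with a median of 9.65, a 5.6-fold range, against 1.7-fold over the 24 embryos of day 13 and 2.1-fold on day 10. A range widens with the number of arrays. The SD of FBXO32 within groups was 0.56 at day 35, larger than that of 97.3 percent of the 1010 genes of like level (mean within 0.5). It was 0.18 on day 13 and 0.22 on day 10, where the median over all named genes was 0.17 and 0.25. TRIM63 ran between 8.72 and 10.38, CAPN3 between 10.12 and 11.68 and CTSB between 10.46 and 11.97. Their SD within groups was 0.36, 0.32 and 0.30, beside a median of 0.31 over all named genes. It was larger than that of 86.1 percent of genes of like level for TRIM63, 82.3 percent for CAPN3 and 79.8 percent for CTSB. The labels do not state feeding state or handling before sampling.

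No comparison of incubation temperatures passed the test for the 4 genes at day 35. FBXO32 had 8.68, 9.29 and 10.34 after 38.8 °C on days 7 to 10, 8.83, 9.58 and 9.79 after 36.8 °C on days 7 to 10, 9.35, 9.86 and 10.21 after 38.8 °C on days 10 to 13 and 8.37, 9.97 and 10.48 after 36.8 °C on days 10 to 13, against 8.60, 9.47 and 10.87 in controls. The 5 groups overlapped. The 4 differences from control ran from -0.12 to 0.24, each with an SE of 0.27. Within groups the SD was 0.78 after 36.8 °C on days 10 to 13 and 0.30 after 38.8 °C on those days, beside 0.71 in controls. The controls listed with the 38.8 °C arrays averaged 9.97 and those listed with the 36.8 °C arrays 9.17 (limma, adjusted p = 0.84). The former include the bird with the highest FBXO32 of all (10.87). Within the blocks FBXO32 differed from control by -0.52 and -0.16 after 38.8 °C and by 0.30 and 0.45 after 36.8 °C (SE 0.32 each, early interval first).

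The group mean of CAPN3 was lowest after cool incubation on days 10 to 13, a difference that did not pass the test. It had 10.12, 10.84 and 11.20 there, against 10.89, 11.15 and 11.68 in controls, and all 8 birds lay below the control mean of 11.22. The difference was -0.40 ± 0.16 (limma, adjusted p = 0.70), and within the block it was -0.36 ± 0.20. After 38.8 °C on the same days CAPN3 had 10.5, 11.39 and 11.67, a difference from control of 0.08 ± 0.16. Between warm and cool incubation on days 10 to 13 it differed by 0.48 ± 0.16 (adjusted p = 0.31), and on days 7 to 10 by 0.18 ± 0.16 (adjusted p = 0.64). Early against later treatment was also compared. CAPN3 differed by -0.08 ± 0.16 after warm and by 0.22 ± 0.16 after cool incubation, and FBXO32 by -0.36 ± 0.27 and -0.15 ± 0.27. None of the 4 genes was called, where 0.00483 percent of probe sets were for warm and 0 percent for cool incubation (limma), and none passed an unadjusted p of 0.05, beside 4.9 and 2.01 percent of probe sets.

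TRIM63 and CTSB also missed the threshold. TRIM63 had 9.39, 9.86 and 10.28 after 36.8 °C on days 7 to 10 and 8.96, 10.10 and 10.38 after 36.8 °C on days 10 to 13, against 8.72, 9.68 and 10.23 in controls. Either difference was 0.24 ± 0.18, and after 38.8 °C the differences were 0.01 ± 0.18 for the early and 0.13 ± 0.18 for the later interval. CTSB differed from control by 0.28 ± 0.15 after 36.8 °C on days 10 to 13 and by -0.04 to 0.08 in the other treated groups. Within the blocks CTSB differed by 0.10 after 36.8 °C on days 10 to 13 and by -0.10 to 0.26 in the others (SE 0.18 each). For TRIM63 the block values ran from 0.06 to 0.20 (SE 0.22 each). Between warm and cool incubation on days 10 to 13 CTSB differed by -0.32 ± 0.15 (limma, adjusted p = 0.49). With the block as a term this was 0.05 ± 0.25. At day 35 none of the 4 genes was called against control in any of the 4 treated groups, where 0 percent of probe sets were called, nor between warm and cool, where 0.295 percent were called for days 7 to 10 and 0.256 percent for days 10 to 13. At an unadjusted p under 0.05 the 4 comparisons with control held 0, 0, 0 and 1 of the 4 genes, beside 3.09 to 6.4 percent of probe sets, and those between warm and cool held 0 of the 4 for days 7 to 10 and 2 for days 10 to 13, beside 13.2 and 9.74 percent.

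No listed pathway gene passed the test at day 35 either. The smallest p against control were those of ANKRD1 (-0.96 ± 0.28) and PIK3IP1 (0.44 ± 0.17) after 38.8 °C on days 7 to 10. After 36.8 °C on days 7 to 10 they were those of ATG4A (-0.25 ± 0.10) and UBE2J1 (-0.28 ± 0.13). After 38.8 °C on days 10 to 13 AMBRA1 (-0.25 ± 0.11) and MCOLN1 (-0.16 ± 0.09) came first, and after 36.8 °C on those days ATG2A (-0.26 ± 0.08) and UBR2 (-0.34 ± 0.11). Their adjusted p ran from 0.55 to 1.0 (limma). Between warm and cool incubation the smallest p were those of SGK2 (-0.81 ± 0.21, adjusted p = 0.084) and IGFBP1 (-0.95 ± 0.26, adjusted p = 0.097) for days 7 to 10 and of CEBPB (-0.52 ± 0.15) and ATG2A (0.29 ± 0.08, adjusted p = 0.20 for both) for days 10 to 13.

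Between single birds of day 35, TRIM63 varied together with PDK4, SESN1 and NFIL3. After removing group means, the named genes nearest to TRIM63 over the 40 birds were PDK4 (Pearson r = 0.81, Spearman rho = 0.77), SESN1 (r = 0.77, rho = 0.79) and NFIL3 (r = 0.76, rho = 0.70), among 7229 genes with a level above the median. PDK4, described above as a switch of fuel use, and SESN1, a sestrin that restrains the growth kinase mTOR, are known FOXO targets in mammals, and NFIL3 is a transcriptional repressor. The control bird with the lowest TRIM63 of all (8.72) had PDK4 at 9.85 and SESN1 at 10.59, and the bird with the highest TRIM63 (10.38, 36.8 °C on days 10 to 13) had PDK4 at 12.45 and SESN1 at 12.57. PDK4 itself ran between 9.75 and 12.45, a 6.5-fold range, and overlapped between all groups.

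**Figure D4:**
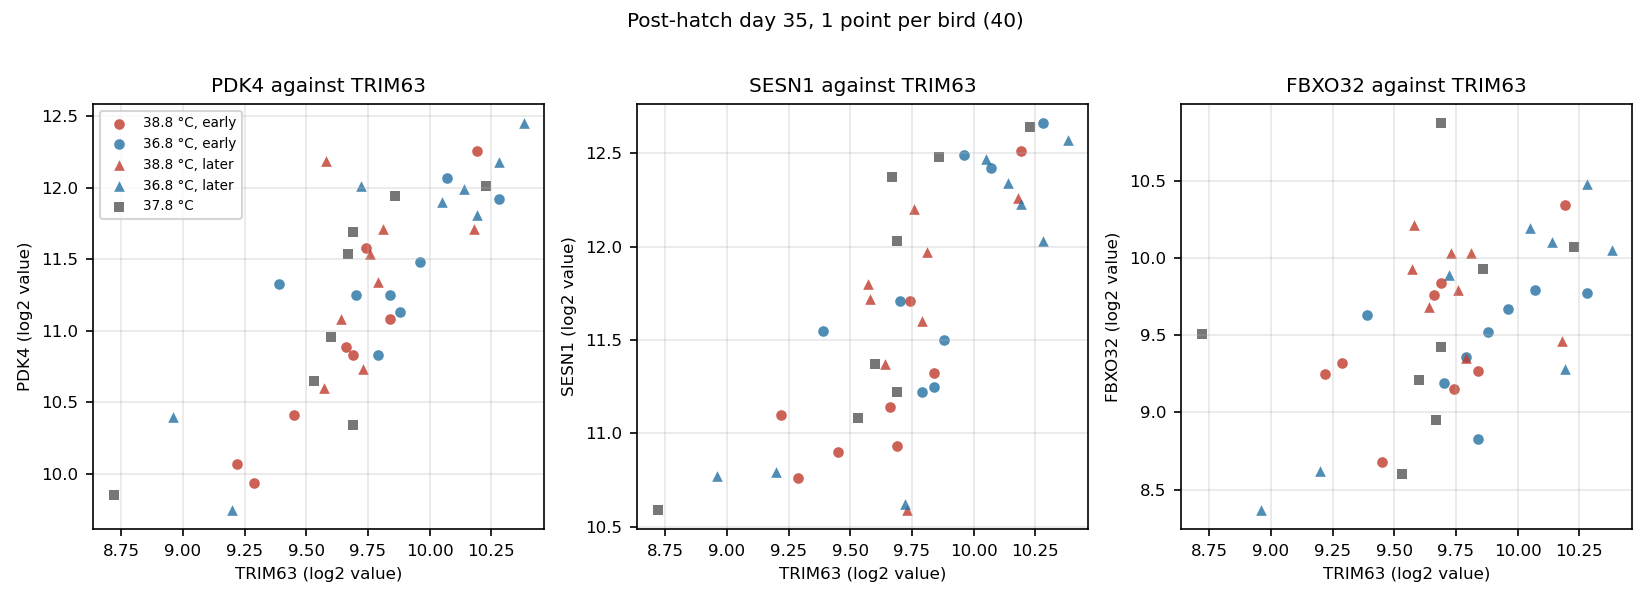
PDK4, SESN1 and FBXO32 (vertical axes, log2 value) against TRIM63 (horizontal axis, log2 value) in the 40 birds of post-hatch day 35. Colour gives the temperature and shape the interval (early, days 7 to 10; later, days 10 to 13). With group means removed and the 5 groups pooled, r was 0.81 for PDK4, 0.77 for SESN1 and 0.52 for FBXO32, and slopes within single groups were not compared.

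A scan of all other 20705 probe sets associated 98 with TRIM63 at day 35 (limma, adjusted p under 0.05), or 0.473 percent, 81 of them positively. Of the listed genes, 10 were among them and all 10 were positive. They were 5 of 31 FOXO targets, namely SESN1, KLF15, PDK4, GLUL and LPIN1, 2 of 31 ubiquitin genes (FBXO30 and ASB2), 2 of 37 FOXO regulators (PIK3R1 and FKBP5) and 1 of 33 autophagy genes (ULK2). None of 16 calpain genes or 36 cathepsin and lysosome genes was. The median r was 0.18 for the FOXO targets, 0.26 for the calpain genes, 0.18 for the FOXO regulators, 0.17 for the ubiquitin genes, 0.12 for the autophagy genes and 0.11 for the cathepsin and lysosome genes, beside 0.05 over all probe sets. KLF15 (r = 0.68, adjusted p = 0.0062) and FKBP5 (r = 0.64, adjusted p = 0.017) are known glucocorticoid-responsive genes, LPIN1 (r = 0.68, adjusted p = 0.0057) is a lipid phosphatase and GLUL (r = 0.58, adjusted p = 0.042) makes glutamine. FKBP5 varied most of the 10, between 5.65 and 10.34. None of the 10 was called in any of the 8 comparisons of groups at day 35.

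The number of associations depended on 2 birds. Without the 2 birds farthest from the median of TRIM63, the number of associated probe sets fell to 3 of 20705. PDK4 then had r = 0.76 (adjusted p = 0.0016) and SESN1 r = 0.73 (adjusted p = 0.0041), while NFIL3 had r = 0.63 (adjusted p = 0.14). Quantile normalization left 34 probe sets associated, a rank-based scan 10 and the listing block as a term 91, and PDK4 and SESN1 passed in each of these. Within the 20 birds of each listing block, PDK4 had r = 0.77 in the block of the 38.8 °C arrays and 0.84 in that of the 36.8 °C arrays, and SESN1 0.76 and 0.78.

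The same genes were then read in the 48 embryo arrays, which had no part in the day 35 test that picked them. The lists they came from were chosen with earlier results of these data known. ASB2 went with TRIM63 there as well (r = 0.67), and KLF15 had r = 0.37. PDK4 had r = -0.40, PIK3R1 -0.24, FBXO30 -0.13, LPIN1 -0.08, GLUL -0.07, ULK2 0.03, SESN1 0.16 and FKBP5 0.21. The genes were picked for a high r at day 35, and the difference between the sets was not tested.

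**Figure D5:**
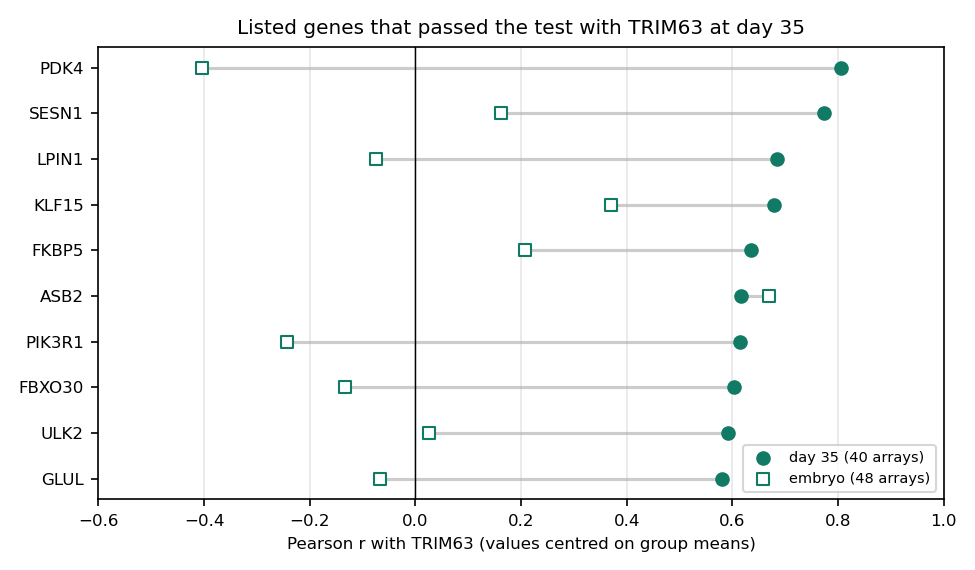
Pearson r with TRIM63 (horizontal axis, values centred on group means) for the 10 listed genes that passed the test at day 35, as filled circles over 40 arrays of day 35 and open squares over 48 embryo arrays. All circles lie between 0.58 and 0.81, having been chosen for this, while the squares run between -0.40 and 0.67 and ASB2 alone is high in both.

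The other genes had fewer companions at day 35. FBXO32 went with TRIM63 at r = 0.52 (permutation p = 4.8e-04) and rho = 0.49 (permutation p = 0.0016), and at r = 0.45 without the 2 birds farthest from its median. Within listing blocks this r was 0.35 for the 38.8 °C block and 0.75 for the 36.8 °C block. In the scans of all probe sets the pair did not pass, whether FBXO32 (limma, adjusted p = 0.18) or TRIM63 (adjusted p = 0.075) was scanned for, and with the listing block as a term the TRIM63 scan called it (adjusted p = 0.047). Nearest to FBXO32 were the MYC-family repressor MNT (r = 0.71), PAPD4 (r = 0.64) and the ligase FBXO30 (r = 0.64), with adjusted p of 0.054 to 0.063, and 0.00483 percent of probe sets were associated. The nearest to CAPN3 were EEF2K, a kinase that slows protein synthesis (r = 0.60), the proteasome activator PSME4 (r = 0.59) and GPS1 (r = 0.58), with an adjusted p of 0.78 each and 0 percent of probe sets associated. For CTSB they were TPPNR1L (r = 0.65), AVD (r = 0.63) and GABPB2 (r = 0.62), with adjusted p of 0.069 to 0.089. The CTSB scan called 3 probe sets (0.0145 percent), all of them negative. It called 0 with the listing block as a term and 0 by rank. Of the 6 pairs among the 4 genes at day 35, the other 5 had r between -0.04 and 0.25.

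In the embryos FBXO32 and CAPN3 went together at r = 0.56 (permutation p = 5e-05) and rho = 0.52 (permutation p = 1.5e-04) over 48 arrays, with group means removed. This r was 0.42 in the block of the 38.8 °C arrays, 0.59 in that of the 36.8 °C arrays and 0.50 without the 2 arrays farthest from the median of FBXO32. FBXO32 was associated with 47.1 percent of the 20705 other probe sets, and CAPN3 had the 1477th highest r among them. The pair passed in the scans for FBXO32 (limma, adjusted p = 8.9e-04) and for CAPN3 (adjusted p = 0.014). After quantile normalization its r was 0.51 and neither scan called it (limma, adjusted p = 0.12 each). TRIM63 and CAPN3 had r = 0.39 (permutation p = 0.0059) and rho = 0.40 (permutation p = 0.0047), with 0.30 in the warm block, 0.52 in the cool block and 0.36 without the 2 farthest arrays. Neither scan called this pair (limma, adjusted p = 0.066 for TRIM63 and 0.070 for CAPN3), while the rank-based scans did (adjusted p = 0.038 and 0.048). After quantile normalization its r was 0.30. TRIM63 and FBXO32 had r = 0.31 (permutation p = 0.034) and rho = 0.30 (permutation p = 0.040), but -0.19 within the block of the 38.8 °C arrays, 0.69 within that of the 36.8 °C arrays and 0.19 without the 2 farthest, so this relation did not hold in both blocks. The 3 pairs with CTSB had r between 0.04 and 0.15. Adjusted over the 12 pairs computed in the 2 sets (Benjamini-Hochberg), the permutation p of r was 6e-04 for FBXO32 with CAPN3, 0.024 for TRIM63 with CAPN3 and 0.10 for TRIM63 with FBXO32 in embryos, and 0.0029 for FBXO32 with TRIM63 at day 35.

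In the embryos the number of associated probe sets changed widely with normalization. FBXO32 was associated with 47.1 percent of all probe sets, a share that quantile normalization took to 0.0338 percent. Its nearest genes were GABARAPL1 (r = 0.76), TRMT10A (r = 0.76) and HMBOX1 (r = 0.75), and after quantile normalization the first had r = 0.55 (limma, adjusted p = 0.095). CAPN3 was associated with 8.72 percent of probe sets (0.0531 percent after quantile normalization). The share was 0.208 percent without the 2 arrays farthest from its median and 3.01 percent with the listing block as a term. The nearest genes to CAPN3 were RCAN1, an inhibitor of calcineurin (r = 0.71), TFPI2 (r = 0.69) and ALG13 (r = 0.69). TRIM63 was associated with 10 percent (31.5 percent after quantile normalization), and its nearest genes were HOMER3 (r = 0.80), PRR5 (r = 0.79) and RBM38 (r = 0.78). CTSB was associated with 4.17 percent, led by NDUFS8 (r = 0.65), GGA1 (r = 0.64) and ACVR1B (r = 0.62), and with none without the 2 arrays farthest from its median.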

How the data were processed

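RNA of the pectoralis major muscle of single chickens was hybridised to 88 Affymetrix arrays. The authors deposited a value for each probe set, taken here as a log2 signal because of its range. The submitters' processing notes name GCOS 1.1.1, and neither labels nor headers state how values were summarised or normalized. After leaving out 98 control probe sets, 20706 entered the fits, made in limma 3.58.1 under R 4.3.3 (group means, eBayes, 2-sided, Benjamini-Hochberg over all probe sets, threshold 0.05), per age for temperature and over all 48 embryo arrays for age. Associations were tested by limma on the value of the gene with group means removed, and permutation p used 100000 resamples. Symbols follow the platform annotation, updated through Entrez identifiers. The limma fit, for some of the comparisons, and the association scan were tested on simulated data, and the other steps were not. Each array is 1 animal, and pens or hatches are not named. The genes and lists were chosen with earlier results of these data known. Named list genes are, per list, up to 6 past the threshold against control, up to 3 rises and 3 falls with age, or else the 2 smallest p over all lists; a few called between 38.8 and 36.8 °C on day 13 were chosen after their values were seen. Arrays give no read depth, so their number limits the precision.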

Additional observations from a re-analysis of the deposited data

Results flagged for a closer look

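Of 44 sets of 8 arrays (4 genes in 11 groups), 7 held 1 array far from the rest by Dixon's test, where chance marks about 1 in 20. For TRIM63 these were a bird at 10.18 after 38.8 °C on days 10 to 13 (the others 9.57 to 9.81) and a control bird at 8.72 at day 35 (the others 9.53 to 10.23), the same bird that carried the lowest PDK4 of the controls. For CTSB on day 13 they were an embryo at 10.94 at 36.8 °C (the others 10.42 to 10.60), one at 10.07 at 38.8 °C (the others 10.48 to 10.73) and one at 10.04 in controls (the others 10.45 to 10.76). For CTSB at day 35 they were a bird at 11.71 after 38.8 °C (the others 11.14 to 11.40) and one at 10.61 after 36.8 °C (the others 11.19 to 11.62), both treated on days 7 to 10.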

How the results depend on the processing

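The age calls of CAPN3, TRIM63 and FBXO32 kept direction and call under each alternative run. The listing block as a term could not move an age difference or an interaction, so it is no check of them. Of the values of the 4 genes, 459 of 489 under another normalization, filter, prior, set of arrays or listing block kept direction and call. With 1 array left out 1143 of 1216 did so. The number of the 4 genes called between 38.8 and 36.8 °C on day 13 was 0 with the listing block as a term and 0 with block and quantile normalization, in place of 1. On day 10 it ran from 0 to 1 with 1 array left out. Differences that changed sign follow, first with the block as a term and then with block and quantile normalization. For FBXO32 these were 38.8 against 36.8 °C on day 13 (-0.22, -0.12), later warm at day 35 (-0.16, -0.16), early cool at day 35 (0.30, 0.36) and later warm against later cool (-0.61, -0.67). For TRIM63 these were 38.8 against 37.8 °C on day 10 (0.10, 0.10), 36.8 against 37.8 °C on day 10 (-0.095, -0.15) and 38.8 against 36.8 °C on day 10 (0.20, 0.26). For CAPN3 these were early warm at day 35 (-0.031, -0.042). For CTSB these were 36.8 against 37.8 °C on day 13 (-0.021 with both), 38.8 against 36.8 °C on day 13 (-0.022 with the block alone), later warm at day 35 (0.14, 0.13), early cool at day 35 (-0.10, -0.071), early warm against early cool (0.36, 0.29) and later warm against later cool (0.047, 0.048). TRIM63 in early warm birds was -0.0091 after quantile normalization and -0.053 against the 2 controls of the same label. With 1 array left out, the sign changed for FBXO32 in age by 38.8 °C (-0.011 to 0.11), early warm at day 35 (-0.26 to 0.067), early cool at day 35 (-0.24 to 0.085), later cool at day 35 (-0.086 to 0.24) and early warm against early cool (-0.15 to 0.092). It changed for TRIM63 in 38.8 against 37.8 °C on day 10 (-0.086 to 0.031), 36.8 against 37.8 °C on day 10 (-0.025 to 0.089), 38.8 against 36.8 °C on day 10 (-0.12 to 0.00037) and early warm at day 35 (-0.12 to 0.10). It changed for CAPN3 in age by 38.8 °C (-0.12 to 0.12) and early warm at day 35 (-0.043 to 0.070). It changed for CTSB in 36.8 against 37.8 °C on day 10 (-0.11 to 0.081), 38.8 against 37.8 °C on day 13 (-0.0021 to 0.14), 36.8 against 37.8 °C on day 13 (-0.019 to 0.084), 38.8 against 36.8 °C on day 13 (-0.0054 to 0.089), age at 36.8 °C (-0.16 to 0.026), age by 36.8 °C (-0.033 to 0.16), early warm at day 35 (-0.038 to 0.13), later warm at day 35 (-0.15 to 0.017), early cool at day 35 (-0.028 to 0.18) and early warm against early cool (-0.11 to 0.032). The cause was not tested for any of these, and none was called. Associations kept direction and call in 96 of 112 values. Other probe sets of the symbols were not tried, as each gene has 1. No paired analysis was possible because the numbers in the labels name single animals, and the groups compared do not share them.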
